A study of Mus musculus with 6 samples.

Results

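The 8 genes described here are expressed by retinal ganglion cells, the output neurons of the retina, or encode the neurofilament proteins of their axons. They were chosen by gene symbol: Nefl, Nefm, Nefh, Rbpms, Sncg, Thy1, Slc17a6 and Nrn1. All 8 were among the 22692 gene symbols of each table, and all 8 were among the 13490 genes that passed the filter on low values (at least 1 RPKM in at least 3 libraries). RPKM is a read number divided by the length of the gene model and by the depth of the library. The RPKM summed over all genes ran from 393433 in 1.5 h replicate 1 to 546836 in 9.0 h replicate 2. Comparisons between libraries therefore depend on the scaling. The RNA came from whole eyes of female C57BL/6J mice, a common inbred strain, aged 4 weeks and with no treatment named in the labels. There were 3 libraries from eyes taken 9.0 h after light onset, late in the light phase, and 3 from eyes taken 1.5 h after it, early in the light phase. Each library was made from RNA pooled from 5 mice. Whether the 3 pools of each time came from separate mice is not stated, and the p-values therefore cover only library-to-library variation, part of which may be technical.

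Retinal ganglion cells collect the signals of bipolar and amacrine cells and send them to the brain through the optic nerve. They are a small minority of retinal neurons, but their long, thick axons need large amounts of neurofilament, a polymer of light, medium and heavy chains. Because their cell bodies lie in the retina and their axons leave the eye, their messenger RNA in an eye sample comes mostly from the retina, while the myelin of the optic nerve is made by other cells behind the eye. In whole-eye RNA, fewer cells of a type and less RNA per cell cannot be told apart.

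The libraries differed in depth and in tissue content. Estimated totals were 31800000, 29860000 and 24030000 reads in 9.0 h replicates 1 to 3, and 28940000, 12680000 and 13000000 reads in 1.5 h replicates 1 to 3. Log2 values of any 2 libraries had Pearson correlations of 0.948 to 0.989 across tested genes, and no pair was identical. The 1.5 h replicate 1 library stood apart, with lens genes deviating by −0.707 and stromal fibroblast genes by −0.742 (log2) from their 6-library means. The 1.5 h replicate 3 library went against its label of female mice: the Y-linked genes Ddx3y, Eif2s3y, Kdm5d and Uty had 0.479, 0.78, 0.126 and 0.205 RPKM there, whereas the remaining 5 libraries list each of them at 0. Fold changes without each of these libraries are given below.

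Between 9.0 h and 1.5 h, none of the 8 genes passed the test. The test was limma on log2(RPKM + 0.1), with p-values adjusted over all 13490 tested genes by the Benjamini-Hochberg method and a threshold of 0.05. It called 30 genes, 0.222% of those tested, so 0 calls among 8 genes does not differ from that background. At an unadjusted limma p below 0.05 the count was also 0 of 8, against 11.1% of tested genes. Of the 8 genes, 4 had fold changes above 0 and 4 below 0, with a median log2 fold change of −0.01, against −0.003 over all tested genes. The 95% intervals of the 8 ratios of 9.0 h over 1.5 h all lay between 0.609 and 1.45, so each of the 8 intervals left out a change of 2-fold in either direction. The intervals are not adjusted for the number of genes. With 1.5 h replicate 1 left out, log2 fold changes were −0.34 for Nefl, 0.04 for Nefm, 0.04 for Nefh, −0.01 for Rbpms, −0.06 for Sncg, 0.16 for Thy1, −0.24 for Slc17a6 and −0.51 for Nrn1, and Nrn1 alone passed. Without 1.5 h replicate 3 they were −0.25, −0.01, 0.24, 0.04, −0.10, 0.22, −0.16 and −0.26 in the same order of genes, and 0 of 8 passed. Fold changes on the log2(RPKM + 0.1) scale understate the change of low genes, but all 8 genes were far above 0.1 RPKM.

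**Figure D1:**
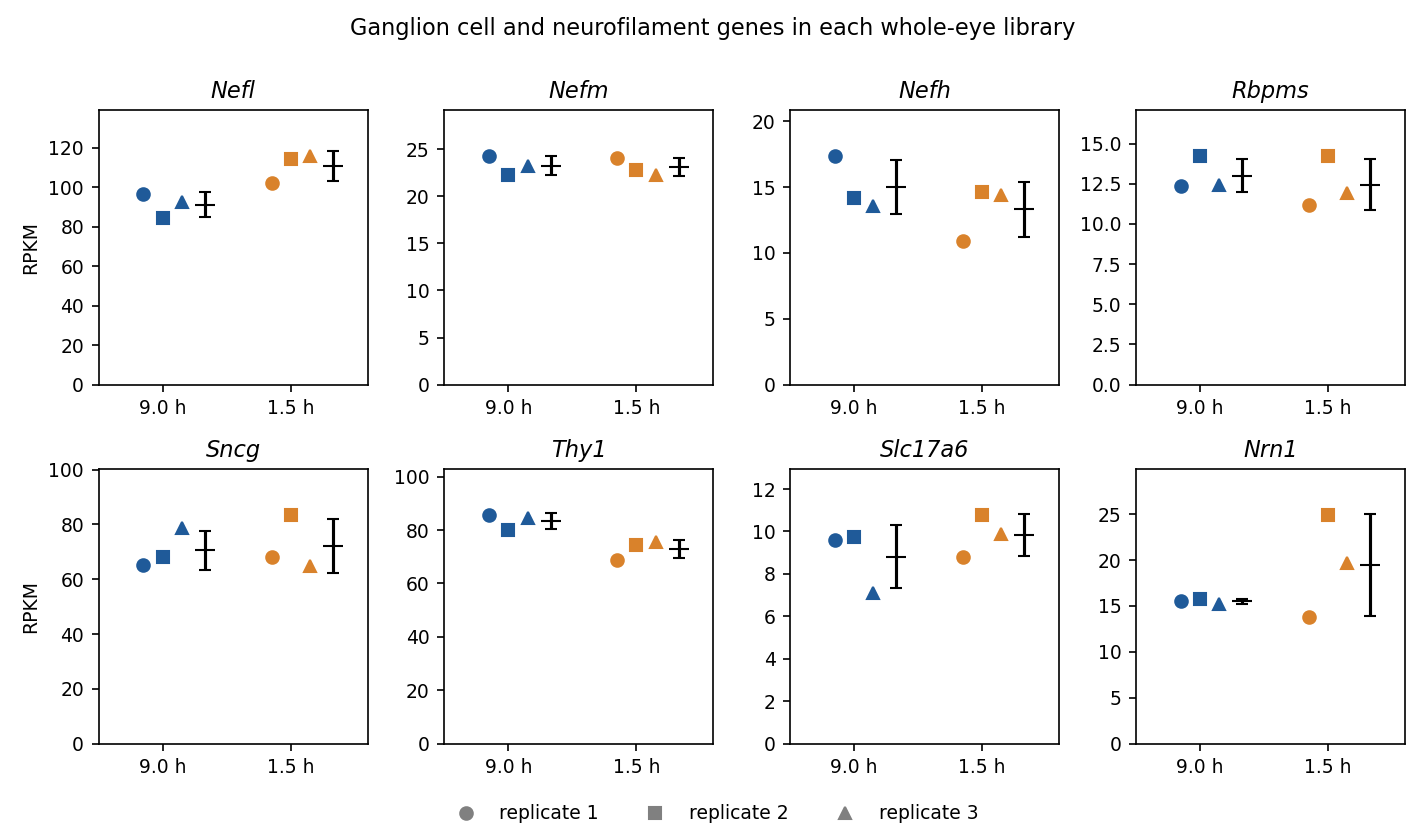
RPKM of each gene (vertical axes, from 0, a different scale in each panel) in the 3 libraries at 9.0 h (blue) and the 3 at 1.5 h (orange), with the marker shape giving the replicate number and the black bar the mean and SD. The times do not overlap for Nefl, which is lower at 9.0 h, and for Thy1, which is higher, and they overlap for the other 6 genes.

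The light chain gene Nefl had the highest mean RPKM of the 8. Its protein is the core on which the other chains assemble. Nefl had 96.71, 84.23 and 92.76 RPKM in replicates 1 to 3 at 9.0 h, against 102.2, 114.3 and 115.9 RPKM in replicates 1 to 3 at 1.5 h. All 3 libraries at 9.0 h were below all 3 at 1.5 h. The means were 91.24 ± 6.38 and 110.8 ± 7.53 RPKM at 9.0 h and 1.5 h (SD, n = 3 each). The log2 fold change was −0.28 ± 0.14 (SE), a ratio of 0.823 with a 95% interval of 0.666 to 1.02, and it did not pass (limma adjusted p = 0.497). The exact two-sided permutation test gave p = 0.1, the smallest value that 3 libraries against 3 allow. It was thus one of the 2 genes of the 8 (25.0%) whose libraries did not overlap between the times, and 18.2% of all tested genes did not overlap either.

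The medium chain gene Nefm was the steadiest of the 8 across libraries. Its protein, like the heavy chain, has a long side arm that reaches out from the filament and spaces it from its neighbours. Nefm had 24.28, 22.22 and 23.26 RPKM in replicates 1 to 3 at 9.0 h, and 24.12, 22.83 and 22.27 RPKM in replicates 1 to 3 at 1.5 h. The highest library exceeded the lowest by a ratio of only 1.09, and the times overlapped fully. Its log2 fold change was 0.01 ± 0.12 (SE; limma adjusted p = 0.986). Its SD between libraries of the same time was 0.0613 on the log2 scale, smaller than that of all but 1.5% of tested genes.

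The heavy chain gene Nefh had the lowest RPKM of the neurofilament genes. Its protein is the subunit typical of mature, large axons, and its tail is built from repeats of lysine, serine and proline that are heavily phosphorylated in the axon. In the GENCODE M21 transcripts, the coding sequence of Nefh holds 51 lysine-serine-proline codon triplets among 1090 codons, that of Nefm 4 among 848 and that of Nefl 0 among 543. The stretch below, from codon 564 to codon 623 of Nefh, shows part of the tail repeats, because reads from such repeats can match several places of the same transcript.
Nefh, GRCm38, chromosome 11, minus strand, 180 bases 5′ to 3′: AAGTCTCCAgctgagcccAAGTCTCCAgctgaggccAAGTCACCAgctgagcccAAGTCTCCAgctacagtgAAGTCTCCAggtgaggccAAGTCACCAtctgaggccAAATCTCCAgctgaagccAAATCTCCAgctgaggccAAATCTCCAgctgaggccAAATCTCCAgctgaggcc
The capitals mark the lysine-serine-proline triplets, of which this stretch holds 10. Of its 131 windows of 50 bases, 72 occur more than once in the transcript, but over the whole Nefh transcript only 3.8% of such windows do. The treatment of reads with several matches is not given in the sources used here.

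Nefh had 17.37, 14.16 and 13.57 RPKM in replicates 1 to 3 at 9.0 h, and 10.93, 14.66 and 14.41 RPKM in replicates 1 to 3 at 1.5 h. The times overlapped, with the highest value in 9.0 h replicate 1 and the lowest in 1.5 h replicate 1. The log2 fold change was 0.18 ± 0.16 (SE; limma adjusted p = 0.754). It was 0.07 without 9.0 h replicate 1 and 0.04 without 1.5 h replicate 1. As a check on counting error, Nefh and Nefl each have 1 annotated transcript, and their values stood for at least about 740 and 4900 reads in the shallowest library. A count of 740 reads has a counting error of 3.7%, well below the spread of Nefh between libraries. Reads of PCR-amplified libraries are not independent molecules, so this covers counting error only.

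The shares of the 3 neurofilament genes within a library do not depend on how the library is scaled, and they are given as a description. They sum to the whole, so a lower share of one gene goes with higher shares of others. Nefl made up 69.9%, 69.8% and 71.6% of the summed RPKM of the 3 genes in 9.0 h replicates 1 to 3, against 74.5%, 75.3% and 76.0% in 1.5 h replicates 1 to 3. Every library at 9.0 h had a lower Nefl share than every library at 1.5 h. Nefh made up 12.6%, 11.7% and 10.5% in 9.0 h replicates 1 to 3, and 7.96%, 9.66% and 9.44% in 1.5 h replicates 1 to 3. The Nefh shares did not overlap between the times, while the RPKM of Nefh itself did. The share of Nefm was 18.0% ± 0.437 at 9.0 h and 15.7% ± 1.61 at 1.5 h (SD, n = 3 each), with 17.6% in 1.5 h replicate 1 lying within the range at 9.0 h.

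Expressed as ratios, Nefl was 5.57, 5.95 and 6.84 times Nefh in 9.0 h replicates 1 to 3, against 9.35, 7.8 and 8.04 times in 1.5 h replicates 1 to 3. Nefl was 3.92 ± 0.112 times Nefm at 9.0 h and 4.82 ± 0.512 times at 1.5 h (SD, n = 3 each). Both ratios were lower in every library at 9.0 h than in every library at 1.5 h, and the ratio of Nefl to another tested gene did not overlap between the times for 33.4% of 13489 genes. The same held for 19.0% of ratios to Nefm and for 18.9% of ratios to Nefh. Nefm was 1.56 ± 0.159 times Nefh at 9.0 h and 1.77 ± 0.379 times at 1.5 h, with overlap. A ratio shows that 2 genes differed unequally and not which of them differed, and these shares were not tested. The summed level of the 3 genes was 138.4, 120.6 and 129.6 RPKM in replicates 1 to 3 at 9.0 h, and 137.2, 151.8 and 152.6 RPKM in replicates 1 to 3 at 1.5 h, so the sums overlapped.

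**Figure D2:**
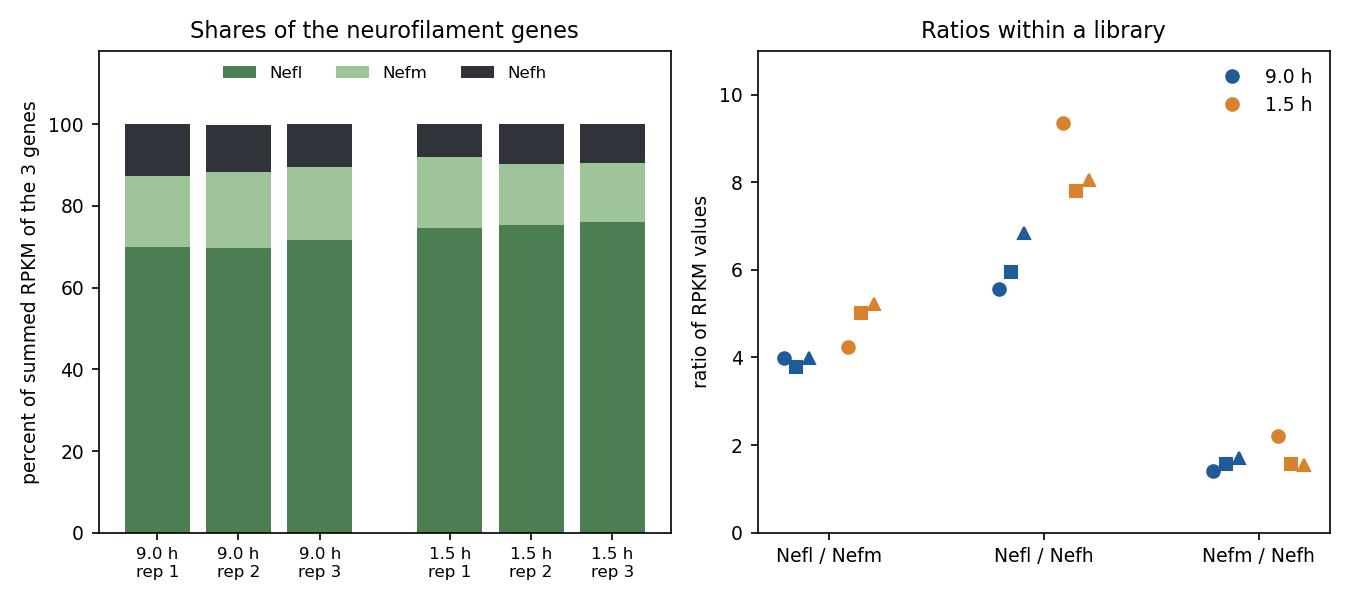
Left, share of Nefl, Nefm and Nefh in their summed RPKM (percent, stacked from 0) in each library. Right, ratios of RPKM within a library, with 9.0 h in blue left of 1.5 h in orange and marker shapes for replicates 1 (circle), 2 (square) and 3 (triangle). The Nefl share is 69.8% to 71.6% at 9.0 h and 74.5% to 76.0% at 1.5 h.

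Nefl and Nefm are neighbouring genes on opposite strands. In GENCODE M21, 1 Nefm transcript runs into Nefl, so that 1108 of the 3380 exonic bases of Nefl (32.8%) also lie in annotated exons of Nefm. The strand setting of the authors' counting is not given in the sources used here, so reads from that stretch cannot be assigned to 1 of the 2 genes with certainty. The same holds for 501 of the 2249 annotated exonic bases of Nrn1, which lie in exons of Fars2 on the other strand. Fars2, a mitochondrial tRNA synthetase gene, had 7.975 to 8.505 RPKM at 9.0 h and 8.413 to 8.613 RPKM at 1.5 h.

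Rbpms, an RNA-binding protein that marks nearly all ganglion cells of the mouse retina, did not pass. It had 12.37, 14.2 and 12.43 RPKM in replicates 1 to 3 at 9.0 h, and 11.19, 14.23 and 11.91 RPKM in replicates 1 to 3 at 1.5 h. The times overlapped, and the log2 fold change was 0.07 ± 0.15 (SE; limma adjusted p = 0.905). Rbpms is also made in smooth muscle, whose markers Acta2, Myh11 and Tagln were present in the whole eye. Their summed level was 136 to 149 RPKM at 9.0 h and 142 to 190 RPKM at 1.5 h, all 3 had fold changes below 0 and 0 of 3 passed. Their part in the Rbpms level was not tested.

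Sncg, gamma-synuclein, is a small presynaptic and axonal protein used as a ganglion cell marker. It had 65.15, 67.95 and 78.58 RPKM in replicates 1 to 3 at 9.0 h, and 68.11, 83.38 and 64.9 RPKM in replicates 1 to 3 at 1.5 h. The times overlapped and the log2 fold change was −0.03 ± 0.15 (SE; limma adjusted p = 0.964). Fat cells also express Sncg. Of the fat cell markers, Adipoq, Plin1 and Cidec were below the filter, Adipoq at 0.5964 RPKM on average at 9.0 h and 0.8816 at 1.5 h, and Fabp4 had 9.853 and 11.86 RPKM at 9.0 h and 1.5 h. The summed level of the 4 was 7.91 to 16.3 RPKM at 9.0 h and 4.61 to 23.3 RPKM at 1.5 h. Sncg was highest in 1.5 h replicate 2, at 83.38 RPKM, and lowest in 1.5 h replicate 3, at 64.9 RPKM. The part of fat cells in the Sncg level was not tested.

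Thy1, a small glycoprotein anchored in the membrane by lipid, is abundant on ganglion cells. It had 85.59, 80.12 and 84.37 RPKM in replicates 1 to 3 at 9.0 h, against 68.88, 74.24 and 75.38 RPKM in replicates 1 to 3 at 1.5 h. All 3 libraries at 9.0 h were above all 3 at 1.5 h. The means were 83.36 ± 2.87 and 72.83 ± 3.47 RPKM at 9.0 h and 1.5 h (SD, n = 3 each). The log2 fold change was 0.20 ± 0.13 (SE), a ratio of 1.14 with a 95% interval of 0.938 to 1.4, and it did not pass (limma adjusted p = 0.634, exact two-sided permutation p = 0.1). The libraries were also rescaled to their sum without the 7 listed lens genes, with all other genes kept in that sum. This moved the median of all tested genes to −0.20, and the log2 fold change of Thy1 was then −0.004. Its SD within a time, 0.0606 on the log2 scale, was smaller than that of all but 1.4% of tested genes.

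Thy1 is also made by fibroblasts and by T cells. Of the 5 stromal fibroblast markers 0 passed, with Dcn at −0.07 and Col1a1 at 1.52 on the log2 scale, and their summed level was 1230 to 1580 RPKM at 9.0 h and 688 to 1430 RPKM at 1.5 h. The gene most like Thy1 over the 6 libraries was Cd248, a surface protein of fibroblasts and pericytes (Pearson r = 0.9966). Cd248 had 13.4 RPKM at 9.0 h and 7.81 RPKM at 1.5 h on average. Eri3 came next (r = 0.9947), and 71 tested genes had r above 0.95 with Thy1. The part of fibroblasts in the Thy1 values was not tested. The T cell markers Cd3e, Cd3g and Cd3d were near 0, summing to 0.171 to 0.391 RPKM at 9.0 h and 0.0932 to 0.19 RPKM at 1.5 h.

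Slc17a6 encodes VGLUT2, which loads glutamate into the synaptic vesicles of ganglion cells. Its mean RPKM was the lowest of the 8. It had 9.595, 9.742 and 7.084 RPKM in replicates 1 to 3 at 9.0 h, and 8.799, 10.77 and 9.897 RPKM in replicates 1 to 3 at 1.5 h. The times overlapped, with 9.0 h replicate 3 the lowest library. The log2 fold change was −0.17 ± 0.17 (SE; limma adjusted p = 0.773), and −0.02 without 9.0 h replicate 3. Its relative Slc17a7 (VGLUT1), which serves photoreceptors and bipolar cells, had 371.2 and 299.6 RPKM at 9.0 h and 1.5 h and did not pass either (log2 fold change 0.33).

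Nrn1, neuritin, is a small lipid-anchored protein induced by neuronal activity that promotes neurite growth. It had 15.57, 15.7 and 15.21 RPKM in replicates 1 to 3 at 9.0 h, against 13.79, 24.89 and 19.65 RPKM in replicates 1 to 3 at 1.5 h. The libraries at 9.0 h were nearly equal, with an SD of 0.252 RPKM, while those at 1.5 h spread with an SD of 5.55 RPKM, on both sides of the values at 9.0 h. The log2 fold change was −0.29 ± 0.19 (SE), a ratio of 0.821 with a 95% interval of 0.609 to 1.11, and it did not pass (limma adjusted p = 0.643, exact two-sided permutation p = 0.4).

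The Nrn1 result depended on 1.5 h replicate 1. Without that library its log2 fold change was −0.51 and it passed (limma adjusted p = 0.0208), in a fit that called 1245 genes (9.23% of those tested). Without 1.5 h replicate 2, the library with the highest Nrn1, the log2 fold change was −0.09 (limma adjusted p = 0.879). Over all the alternatives tried, the adjusted p of Nrn1 lay between 0.0208 and 0.986. Of 8 activity-induced genes, 5 passed the filter and only Egr1, a transcription factor, was called. Egr1 had 24.56 ± 3.54 RPKM at 9.0 h and 6.494 ± 1.72 RPKM at 1.5 h (SD, n = 3 each; log2 fold change 1.93, limma adjusted p = 0.00416). The fold change of Egr1 was above 0 and that of Nrn1 was below 0. The 5 tested activity-induced genes had a median log2 fold change of 0.70, against −0.003 over all tested genes. Of the 5, 4 were above 0 and 1 below. The part of neuronal activity in the Nrn1 level was not tested.

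**Figure D3:**
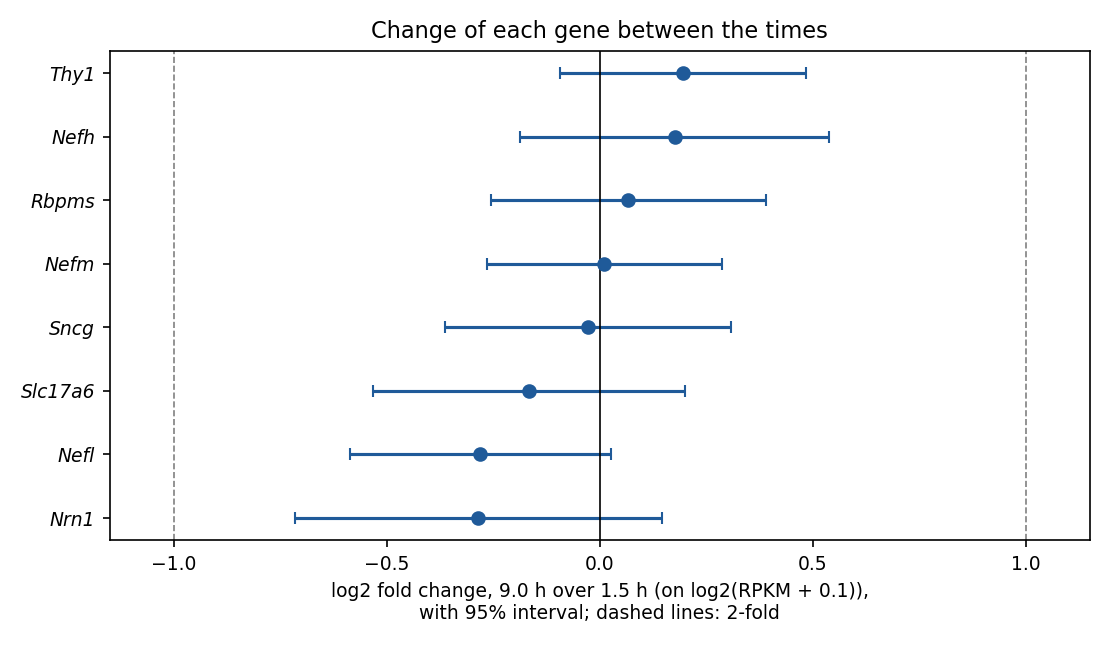
Log2 fold change of each gene, 9.0 h over 1.5 h, on the log2(RPKM + 0.1) scale (horizontal axis; points) with its unadjusted 95% interval from limma (bars), and dashed lines at a 2-fold change. Every interval includes 0 and lies inside the dashed lines, from a lowest bound of −0.72 (Nrn1) to a highest bound of 0.54 (Nefh).

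By mean RPKM over the 6 libraries the order was Nefl (101.0), Thy1 (78.1), Sncg (71.34), Nefm (23.16), Nrn1 (17.47), Nefh (14.18), Rbpms (12.72) and Slc17a6 (9.314). RPKM is per length, but the gene model lengths behind these values are not stated, so the order holds for RPKM only. For Nrn1, for example, 1 annotated transcript has 691 bases, and all annotated exons together have 2249. Nefl exceeded Thy1 in 6 of 6 libraries, Sncg exceeded Nefm in 6 of 6 by 2.68 to 3.65 times, and Rbpms exceeded Slc17a6 in 6 of 6. The other neighbours changed places in at least 1 library: Thy1 exceeded Sncg in 5 of 6, Nefm exceeded Nrn1 in 5 of 6, Nrn1 exceeded Nefh in 5 of 6 and Nefh exceeded Rbpms in 4 of 6. Nefl, Thy1 and Sncg were more abundant than at least 95.5% of tested genes, and Slc17a6 than 53.9%.

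The 9.0 h replicate 1 library held the highest value of 3 of the 8 genes (Nefm, Nefh and Thy1), as it did for 16.7% of all tested genes. The 1.5 h replicate 2 library held the highest value of 4 (Rbpms, Sncg, Slc17a6 and Nrn1), as it did for 33.7% of all tested genes. The 1.5 h replicate 1 library held the lowest value of 4 (Rbpms, Nefh, Thy1 and Nrn1), as it did for 27.0% of all tested genes. Averaged over the 8 genes, the log2 levels deviated from their own means by 0.027, −0.026 and −0.059 in 9.0 h replicates 1 to 3, and by −0.134, 0.164 and 0.027 in 1.5 h replicates 1 to 3. The median within-time SD of the 8 genes was 0.159 on the log2 scale, against 0.188 over the 8979 tested genes with a mean of at least 5 RPKM.

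Other ganglion cell genes also did not pass. Of 20 listed, 18 passed the filter (Tbr1 and Atoh7 did not), 0 were called, 7 had fold changes above 0 and 11 below 0, and the median log2 fold change was −0.04. The most abundant were Uchl1, a neuronal deubiquitinase, with 210.2 and 160.2 RPKM at 9.0 h and 1.5 h (log2 fold change 0.41, limma adjusted p = 0.398), and Tppp3, a tubulin-binding protein, with 125.1 and 116.9 RPKM (0.10). The list includes the transcription factors Pou4f1, Pou4f2 and Pou4f3, which are expressed in ganglion cells. These 3 were detected at means between 1.387 and 3.276 RPKM at 9.0 h and between 1.638 and 3.321 RPKM at 1.5 h. They are named here after their values were seen. Opn4, the melanopsin gene of the light-sensitive ganglion cells, had 2.5 and 2.503 RPKM at 9.0 h and 1.5 h.

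Of 7 genes that build or regulate neuronal intermediate filaments, all 7 were tested and 0 called, with a median log2 fold change of −0.01. The most abundant were Cdk5, a kinase that phosphorylates neurofilament tails, with 24.97 and 22.42 RPKM at 9.0 h and 1.5 h, and Ina, alpha-internexin, the fourth subunit of central neurofilaments, with 21.09 and 18.75 RPKM. Their log2 fold changes were 0.16 each. Of 13 listed genes of the axonal cytoskeleton and its transport, 10 were in the tables, all 10 were tested and 0 called, with a median of −0.05. The tubulin gene Tuba1a had 362.1 and 225.1 RPKM at 9.0 h and 1.5 h (log2 fold change 0.70, limma adjusted p = 0.151) and Tubb2a 80.1 and 70.27 RPKM (0.20). Of 6 close relatives of the 8 genes, 0 were called and the median was 0.10, with beta-synuclein (Sncb) at 0.15.

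Several myelin genes varied more between libraries than the 8 genes did. Myelin genes are made by oligodendrocytes of the optic nerve and by Schwann cells of peripheral nerve, and not by ganglion cells. Mag, a myelin glycoprotein, had 2.636, 8.104 and 0.8543 RPKM in replicates 1 to 3 at 9.0 h, and 0.156, 3.911 and 6.314 RPKM in replicates 1 to 3 at 1.5 h. The highest library was 51.9 times the lowest for Mag and 1.54 times for Pmp22, against 1.09 to 1.8 times for the 8 genes. Mag is named here after its values were seen. All 8 myelin genes were lowest in 1.5 h replicate 1, and Mobp was listed at 0 there. The spread lay within each time: 0 of the 8 were called and their median log2 fold change was 0.04, with Pmp22, the most abundant, at 0.07.

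None of the lists for other retinal cells had a called gene. Of 5 rod genes 0 were called, with the rod transducin gene Gnat1 at −0.36. Of 5 bipolar cell genes 0 were called, with the channel gene Trpm1 at −0.25. Amacrine cells also lie in the ganglion cell layer. Of 6 of their markers, 4 were in the tables, and all 4 had fold changes above 0 with 0 called, Calb2 at 0.19 and Gad1 at 0.08 (sum 252 to 270 RPKM at 9.0 h and 223 to 235 RPKM at 1.5 h). The Mueller glia list had 0 of 4 called, with Glul at 0.13 and Rlbp1 at −0.14, and of the horizontal cell list only Calb1 passed the filter (−0.20), while Lhx1 had 0.9338 and 0.9157 RPKM at 9.0 h and 1.5 h. Outside the retina, 0 of 7 lens genes were called (Cryaa at 0.78, Crybb2 at −0.09; median 0.32) and 0 of 5 skeletal muscle genes (Acta1 at 0.90, Mb at −0.23; median 0.22). Each library was also shifted so that the retinal lists had equal means, which moved the median of all tested genes to 0.09. The log2 fold changes were then −0.19 for Nefl, −0.19 for Nrn1 and 0.29 for Thy1, with 0 of the 8 called.

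**Figure D4:**
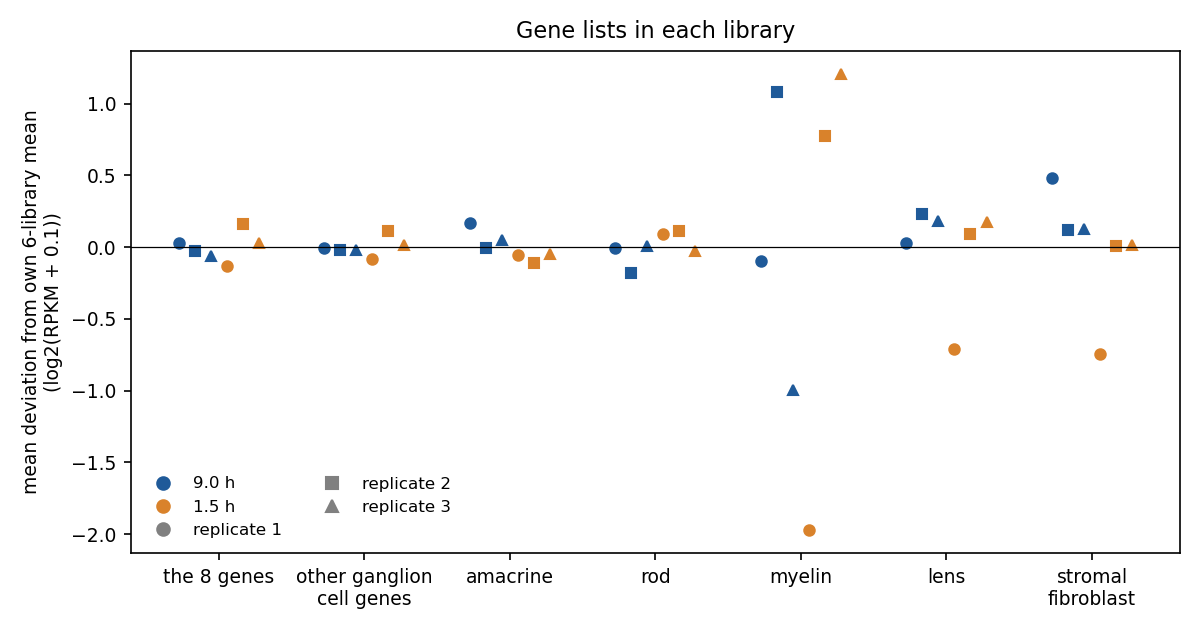
Mean deviation of each gene list from its own mean over the 6 libraries (vertical axis, log2(RPKM + 0.1) units), 1 point per library, with 9.0 h in blue left of 1.5 h in orange and marker shapes for replicates. The 8 genes stay between −0.134 and 0.164, whereas the myelin list runs from −1.973 to 1.209 and the lens and stromal lists are low in 1.5 h replicate 1 alone.

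For each of the 8 genes, the 2 tested genes with the most similar pattern were found by Pearson's r of log2(RPKM + 0.1) over the 6 libraries. These were Cyp26b1 and Scly for Nefl (r = 0.9943 and 0.9851), Exoc3l and Lass4 for Nefm (0.9873 and 0.9865) and Palld and Chsy3 for Nefh (0.9931 and 0.993). They were Rab11a and Snx7 for Rbpms (0.996 and 0.9958), Arpc3 and Chchd6 for Sncg (0.9948 and 0.9895) and Cd248 and Eri3 for Thy1 (0.9966 and 0.9947). For Slc17a6 they were Tspyl5 and Psme4 (0.9915 and 0.9904), and for Nrn1 Cap2 and Lpcat2 (0.9925 and 0.9902). With 6 libraries that share depth and tissue content, high values are common: between 22 genes (Nefl) and 199 genes (Nrn1) had r above 0.95 with a given gene, so these pairs are descriptions only. None of these nearest genes was another neurofilament or ganglion cell gene of the lists, and the 8 genes themselves were left out of the search.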

How the data were processed

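Whole-eye RNA was measured in 6 libraries, 3 for each time. The authors deposited 1 table of RPKM values per library. The submitters' processing notes name GSNAP, HTSeq and the build mm9. Versions, annotation and strand setting are not stated. The unit was taken from the values of genes with 1 annotated transcript. Of low values multiplied by length, 70.7% to 74.6% lay within 0.1 read of a whole number at the total chosen per library. The median share over the searched totals was 10.3% to 15.1%. Multiples of a total also give whole numbers, so the lowest total near the highest share was taken as the estimated depth. These totals are approximate, and RPKM values were not turned back into counts.

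The comparison was 9.0 h minus 1.5 h in limma 3.58.1 (R 4.3.3) on log2(RPKM + 0.1), using its robust empirical Bayes step with a mean trend, for genes with at least 1 RPKM in at least 3 libraries. The fit was tested on simulated data with independent noise for each gene. Such data lack the deviations that genes share within these libraries. Alternatives changed the pseudocount, filter, scaling, library weights, replicate block and libraries. Replicate numbers were not treated as pairs. The 8 genes and all lists were chosen with earlier results of these data known. Genes named are the 8, called members of each list or else its 2 most abundant, and for each of the 8 the 2 most similar in pattern; others are marked, and a few genes that the rule names are not reported here. The list genes absent from the tables (Map1a, Map1b, Map2, Tfap2a and Tfap2b) were not analysed here. Transcript lengths, sequences and gene overlaps came from GENCODE M21 on GRCm38, a later build than mm9, so no coordinates are given.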

Additional observations from a re-analysis of the deposited data

How the results depend on the processing

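None of the 8 genes passed in the main fit or in 13 of the 15 alternatives. Weighting the libraries gave 2 calls, Nefl (log2 fold change −0.34, limma adjusted p = 0.0292) and Nrn1 (−0.34, 0.0366), but the estimate of the weights stopped before it converged, gave 1.5 h replicate 3 a weight of 5.52 against 0.279 to 1.36 for the others, and called 2244 genes. Leaving out 1 library each gave 0 to 1 calls among the 8, the call being Nrn1 without 1.5 h replicate 1 (−0.51, limma adjusted p = 0.0208), and its fold change lay between −0.51 and −0.087. Slc17a6, Nefl and Nrn1 stayed below 0 in all 15 alternatives.

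Rescaling without the 7 listed lens genes, with all other genes kept in the sum, moved the median of all tested genes to −0.20. It turned Rbpms to −0.13, Nefm to −0.19, Nefh to −0.022 and Thy1 to −0.0037. Nefl was then at −0.48, Nrn1 at −0.48, Slc17a6 at −0.36 and Sncg at −0.23. Nefm was −0.034 after quantile normalization, and Sncg was 0.066 with the retinal lists set equal and 0.10 with library weights. With 1 library left out, Rbpms ranged from −0.0051 to 0.17, Sncg from −0.11 to 0.081 and Nefm from −0.021 to 0.043, so none of these had a settled direction; the cause was not tested.

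Over all genes, 30 calls became 15 after quantile normalization and 19 with median-ratio scaling, and between 2 and 1245 with 1 library left out. The replicate block gave 141 calls, 0 among the 8. Same-numbered libraries deviated together with r = 0.347, 0.484 and −0.215, and differently numbered ones with r from −0.539 to 0.225. The labels name no pairing, so numbers were not taken as pairs. Whether same-numbered libraries share a source of variation was not tested. Counting error was at most 3.7% for the 3 genes with 1 annotated transcript and was not estimated for the other 5.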
